A study of Mus musculus with 6 samples.

Results

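The genes described here encode the kinesin and myosin motors and the tubulins of the mouse. They were taken from the mm10 RefSeq annotation by symbol as the kinesins (Kif, Kifc), the kinesin light chains and adaptor (Klc, Kifap3), the unconventional myosins (Myo), the class II myosin heavy chains (Myh), the alpha-, beta- and gamma-tubulins and the gamma-tubulin complex proteins (Tubgcp). This gave 106 of 21468 protein-coding genes with a known strand. They divide into 41 kinesins, 5 light chains and adaptor, 25 unconventional myosins, 13 class II myosins, 7 alpha-, 8 beta- and 2 gamma-tubulins and 5 gamma-tubulin complex proteins. Microtubules are polymers of alpha- and beta-tubulin, nucleated by gamma-tubulin rings. Kinesins walk along them and carry vesicles, organelles and RNA into axons and dendrites, or separate chromosomes in dividing cells, and myosins pull on actin in growth cones, at the cell cortex and in dendritic spines. A growing neuron depends on all 3 kinds of protein. MicroRNAs (miRNAs) guide the protein AGO2 to complementary stretches of an mRNA, usually in its 3’UTR, and lower its translation or stability.

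The study asked how AGO2 binding in brain depends on MOV10, an RNA helicase that associates with AGO2. AGO2 was immunoprecipitated (IP) after UV crosslinking from whole brains at postnatal day 0 (P0) of C57Bl/6J mice, 1 WT and 2 *Mov10* Deletion, and each IP had a size-matched input library. *Mov10* Deletion mice combined a conditional *Mov10* allele, whose exons between LoxP sites are removed by *Emx1*-Cre in excitatory neurons of neocortex and hippocampus, with a *Mov10* heterozygous mutant. The brains therefore also held cells in which Cre was not active. The method, chimeric eCLIP, joins a miRNA to the target RNA bound by the same AGO2 molecule, so that some reads name both. Each cluster of AGO2 reads came with its ratio of IP to input, on the log2 scale, and a −log10 p-value, and each cluster of chimeric reads, called a target cluster here, with a miRNA and a score. With 1 WT brain the genotypes were not tested against each other, and library and genotype cannot be told apart.

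miR-124-3p, the most abundant miRNA of neurons, was the most frequent miRNA on the kinesin, myosin and tubulin genes in every library. Its assignments were 78 of 199 in WT (39.2%, exact 95% interval 32.4 to 46.4), 94 of 262 in the first *Mov10* Deletion library, replicate 1 (35.9%, 30.1 to 42.0), and 45 of 113 in replicate 2 (39.8%, 30.7 to 49.5). An assignment is 1 miRNA on 1 target cluster. The shares outside these genes were 42.2%, 34.8% and 36.8%, each within the members' interval. Over the 3 libraries together the next most frequent were miR-125b-5p, miR-9-5p and miR-466i-5p with 14, 16 and 10 assignments in WT, 20, 17 and 17 in replicate 1 and 5, 5 and 9 in replicate 2. In all, 100 miRNA names were assigned to the members, and RefSeq (GRCm38.p6) gave a mature sequence for 86 of them. miR-124-3p and miR-466i-5p are named only. The sequences below are those of miR-125b-5p, of miRNAs found at the same member site in all 3 libraries and of partners with the same seed. They run 5′ to 3′, and the capitals mark the seed, bases 2 to 8, which sets most of the pairing with a target.
miR-125b-5p: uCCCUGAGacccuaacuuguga
miR-9-5p: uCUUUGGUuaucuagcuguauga
let-7c-5p: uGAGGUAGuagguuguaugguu
let-7a-5p: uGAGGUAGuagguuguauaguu
miR-181a-5p: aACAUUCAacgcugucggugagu
miR-181b-5p: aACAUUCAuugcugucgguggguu
miR-16-5p: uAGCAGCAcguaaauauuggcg
miR-15a-5p: uAGCAGCAcauaaugguuugug
miR-128-3p: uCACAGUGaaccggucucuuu
miR-7a-5p: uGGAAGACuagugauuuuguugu
miR-433-3p: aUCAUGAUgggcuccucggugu
miR-3099-3p: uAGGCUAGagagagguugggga

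Grouped by seed, the miR-125 seed CCCUGAG had 14, 24 and 6 assignments in WT, replicate 1 and replicate 2. The let-7 seed GAGGUAG, shared by 9 of the assigned names, had 11, 19 and 11. The miR-9-5p seed CUUUGGU had 16, 17 and 5, the seed AGCAGCA of miR-16-5p and 5 relatives had 9, 8 and 7, and the miR-181 seed ACAUUCA had 10, 6 and 4. No seed of a miRNA with a sequence here approached miR-124-3p in number.

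The files held 359172 AGO2 clusters in WT, 616014 in replicate 1 and 616005 in replicate 2, and both *Mov10* Deletion libraries share 614927 of their positions, so only the enrichment at those positions is separate between them. Enriched here means that both the log2 ratio and the −log10 p of a cluster reached 3. The reads behind each cluster are not in the files and were inferred from its fold and p-value. With 1 input read, a WT cluster reached these limits from 16 inferred IP reads on, and a *Mov10* Deletion cluster from 9 (replicate 1) or 8 (replicate 2), so fewer reads sufficed there. The best cluster of a gene without an enriched one is that with the highest −log10 p among those above input. Enriched clusters made up 2.11% of all clusters in WT, 5.18% in replicate 1 and 3.10% in replicate 2. miRNAs of liver, muscle and blood had 0 to 23 assignments a library over the whole data, against 4962 to 10630 for miR-124-3p. Of the muscle genes outside the members, *Ttn* had 0 AGO2 clusters in WT and 19 in each *Mov10* Deletion library, none enriched, and *Ckm* had none. *Mov10* itself carried 11, 9 and 9 AGO2 clusters, of which 1, 0 and 0 were enriched. These clusters do not measure its expression and so do not check the genotype labels. In whole tissue, fewer cells of a type and less RNA per cell cannot be told apart.

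Of the 106 members, 87 had an AGO2 cluster in at least 1 library, and 49 had an enriched one. The remaining 19 of the 106 had no AGO2 cluster in any library. By library, 78 members had an AGO2 cluster in WT and 85 in each *Mov10* Deletion library. Of all 21468 protein-coding genes, 13116 had one in WT and 13850 in each *Mov10* Deletion library. The counts over all genes that match the 87 and the 49 were not computed. Enriched clusters lay in 25 members in WT (23.6%, against 12.6% of all protein-coding genes), 42 in replicate 1 (39.6%, against 29.3%) and 37 in replicate 2 (34.9%, against 23.0%). Among genes with an AGO2 cluster in the library, the members' shares were 32.1%, 49.4% and 43.5%, against 20.6%, 45.4% and 35.7%. With the same number of enriched clusters kept in each library, as described with the patterns below, the counts were 25 in WT, 21 in replicate 1 and 24 in replicate 2, so the excess in *Mov10* Deletion was no longer seen. The members are long, with a median gene length of 41041 nt against 17535 nt for all protein-coding genes, and longer genes held enriched clusters more often. Among genes of 20 to 100 kb the members' shares were 16%, 28.0% and 28.0%, against 15.9%, 38.2% and 29.9%. Over 100 kb they were 46.2%, 73.1% and 61.5%, against 36.8%, 74.1% and 64.3%. Under 20 kb, where the tubulins lie, they were 16.7%, 30% and 23.3% of 30 members, against 5.27%, 14.0% and 9.84%.
Enrichment was uneven across the families, as the plot of enriched members by family shows. In WT, replicate 1 and replicate 2 the counts were 12, 17 and 14 of the 41 kinesins, 5, 10 and 11 of the 25 unconventional myosins, and 3, 5 and 5 of the 8 beta-tubulins. Only 2 of the 13 class II myosins were enriched, in every library the same 2, *Myh9* and *Myh10*.

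**Figure D1:**
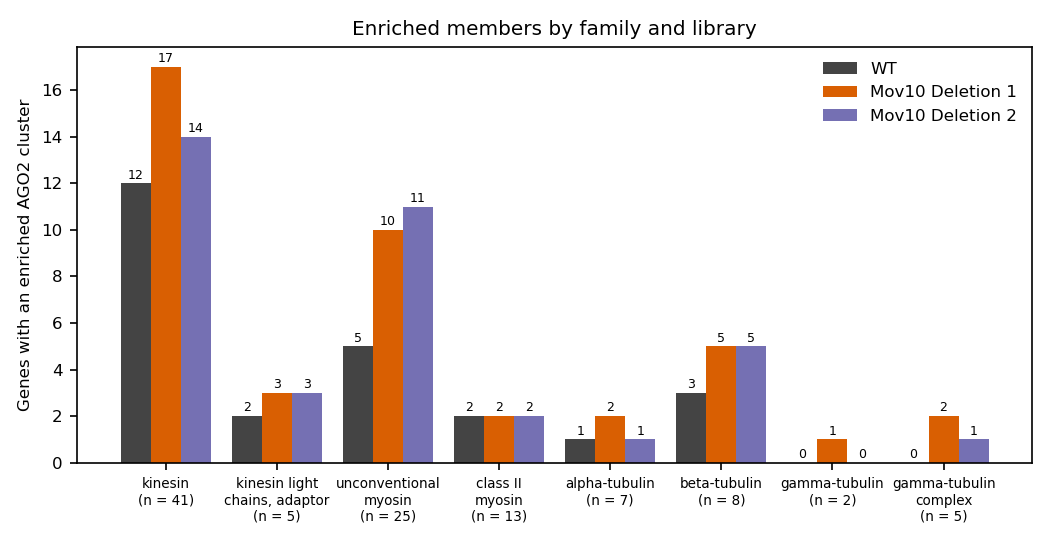
Number of genes with an enriched AGO2 cluster (vertical axis) in each family of the members, with 1 bar for each library and the family size as n. The beta-tubulins reach 5 of 8 genes in both *Mov10* Deletion libraries, while the class II myosins stay at 2 of 13 in all 3.

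Among the beta-tubulins, which bind and hydrolyse GTP at the growing end of the microtubule, *Tubb4a* and *Tubb5* were those with a locus enriched in all 3 libraries. *Tubb4a*, the beta-tubulin of oligodendrocytes and mature neurons, was enriched 62 nt from its 3′ end (chr17:57080123-57080265, minus strand) with log2 values of 3.96 in WT, 4.49 in replicate 1 and 4.24 in replicate 2. The WT value rested on 387 inferred IP reads over 21 input reads, the most of any enriched member cluster in WT, and replicate 2 on 119 over 15. A second *Tubb4a* locus 498 nt from the end reached 3.26, 3.02 and 3.06. *Tubb5*, the widely expressed isotype, was enriched 2709 nt from its end (chr17:35836629-35836719) at 4.76, 4.47 and 3.42. WT was thus below both *Mov10* Deletion libraries at the first *Tubb4a* locus and above both at the second and at *Tubb5*.

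*Tubb2a*, *Tubb2b* and *Tubb3*, the isotypes of young neurons, differed more between the libraries. At *Tubb2b* (chr13:34128376-34128521) the log2 was 2.29 in WT, 3.54 in replicate 1 and 3.48 in replicate 2, on 104, 140 and 75 inferred IP reads, so this was a deeply covered locus that missed the threshold in WT. At *Tubb2a* (chr13:34076225-34076278) it was 2.08, 3.97 and 4.50, and here WT passed through another cluster 314 nt from the end (3.03), with no cluster there in *Mov10* Deletion. *Tubb3*, the class III isotype used as a neuronal marker, had enriched clusters only in *Mov10* Deletion, with a highest log2 of 4.19 and 4.42 on 21 and 9 IP reads. These highest clusters lay 9023 and 8856 nt from the end of the gene, and its best WT cluster at 380 nt (2.94, 118 IP reads). *Tubb4b* had 6 clusters a library and none enriched. *Tubb1*, the isotype of platelets, and *Tubb6* had no AGO2 cluster, although *Tubb6* had 1 target cluster, of miR-124-3p, in replicate 1.

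Among the alpha-tubulins only *Tuba1b* was enriched in all 3 libraries. A locus 70 nt from its end (chr15:98931499-98931639) stood at 4.71 in WT, 4.28 in replicate 1 and 1.84 in replicate 2, and a second one 490 nt from the end at 3.61, 2.94 and 3.2, so each missed the threshold in 1 *Mov10* Deletion library. *Tuba1c* was enriched in replicate 1 (3.61, 14 IP reads). *Tuba1a*, the main alpha-tubulin of developing neurons, had no enriched cluster and is described with the miRNA sites below. *Tuba4a* missed the threshold in every library, with 1.34, 3.12 and 3.84 on at most 10 IP reads. *Tuba3a*, *Tuba3b* and *Tuba8* had no cluster. Some of the alpha-tubulin genes, and likewise *Tubb2a* and *Tubb2b*, are closely similar in their coding sequence. How reads that map to several places were treated is not given in the sources used here, so the split of reads between these genes is uncertain.
Of the gamma-tubulins and their ring proteins, which seed new microtubules, none was enriched in WT, 3 were in replicate 1 and 1 was in replicate 2. *Tubg1* was enriched in replicate 1 (3.50, 13 IP reads) and *Tubg2* in none. *Tubgcp2* was enriched in both *Mov10* Deletion libraries (4.38 and 4.25, on 12 and 8 IP reads over 1 input read), *Tubgcp3* in replicate 1, and *Tubgcp4*, *Tubgcp5* and *Tubgcp6* in none. The *Tubgcp2* values came from different loci, and none of its loci passed in both libraries.

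Among the neuronal transport kinesins, *Kif1b* was enriched at the same place in every library and *Kif1a* was not. *Kif1b*, which carries synaptic vesicle precursors and mitochondria, was enriched 4264 nt from its end (chr4:149180583-149180788) at 3.72 in WT, 4.97 in replicate 1 and 4.42 in replicate 2, on 125, 72 and 36 IP reads. Its relative *Kif1a*, also a carrier of synaptic vesicle precursors, had 5 and 6 enriched clusters in *Mov10* Deletion with highest log2 values of 4.50 and 4.58 on 13 and 10 IP reads, and none in WT, where its best cluster lay 50 nt from the end (2.78, 65 IP reads). At the locus of that WT cluster replicate 1 stood at 2.05 (50 IP reads) and replicate 2 at 3.63 (26 IP reads), so WT lay between them. No single *Kif1a* locus was enriched in both *Mov10* Deletion libraries.

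Of the 3 heavy chains of conventional kinesin, *Kif5a* and *Kif5c* were enriched in all libraries and *Kif5b* in none. The highest log2 values were 3.65, 4.26 and 3.13 for *Kif5a* and 3.93, 4.89 and 4.95 for *Kif5c*. No *Kif5a* locus passed in all 3 libraries. No *Kif5c* locus passed in more than 1 library, and 11 of its loci passed in replicate 1 alone. *Kif5b*, the isoform found in most cells, had 17, 37 and 37 clusters and reached 1.69, 1.65 and 2.16 at its best ones. The light chains *Klc1* and *Klc2*, which bind the cargo of these heavy chains, were enriched in all 3 libraries, and *Klc2* shared 1 locus 513 nt from its end at 3.22, 3.66 and 4.42. *Klc3* and *Klc4* were not enriched.

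The subunits of the heterotrimeric kinesin-2, which builds cilia and carries N-cadherin vesicles, gave different patterns. *Kif3a* was the only member whose enrichment was limited to WT. Its locus (chr11:53571653-53571770, 32478 nt from the gene end) had a log2 of 4.61 on 29 IP reads over 1 input read in WT and no cluster in *Mov10* Deletion, where the best *Kif3a* clusters elsewhere stood at 3.80 (8 IP reads) and 2.71 (11 IP reads). *Kif3b* was enriched in replicate 1 (4.38, 12 IP reads), *Kif3c* in all 3 libraries (3.49, 4.12 and 4.50, at different loci) and the adaptor *Kifap3* in both *Mov10* Deletion libraries (3.80 and 3.25 on 16 and 12 IP reads). The *Kifap3* loci also differed, and none passed in both.

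The kinesin-4 relatives *Kif21a* and *Kif21b*, which pause microtubule growth, and *Kif26b*, a kinesin that lacks ATPase activity, were enriched in all libraries. *Kif21b* had 6, 10 and 13 enriched clusters, and its locus 1733 nt from the end (chr1:136175933-136176268) stood at 4.04, 6.16 and 3.13 on 39, 41 and 11 IP reads. *Kif21a* passed at 1 locus in all libraries (4.0, 3.74 and 4.58), with the WT and replicate 1 values from clusters that did not overlap. *Kif26b* passed 151 nt from its end (chr1:178932406-178932706) at 4.58, 3.86 and 4.58, on 85, 75 and 50 IP reads. Here replicate 2 equalled WT and replicate 1 was lower. *Kif13b* passed at a locus 217 nt from its end at 3.76, 4.80 and 4.95. The WT value came from a cluster 417 nt from the end. Both *Mov10* Deletion values came from a cluster at 226 nt, which a WT cluster with 3.13 overlapped. *Kif2a*, a microtubule depolymerase of the axon, passed in *Mov10* Deletion alone, at a locus 1678 nt from the end with 3.26 and 5.16 on 11 and 15 IP reads and no WT cluster.

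The kinesins of cell division were described by a short list. *Kif11*, *Kif18a*, *Kif20a*, *Kif20b* and *Kif23*, which build the spindle, move chromosomes and complete cytokinesis, had 10 AGO2 clusters together in WT and 27 in each *Mov10* Deletion library. None of these 5 was enriched, where all protein-coding genes gave 12.6%, 29.3% and 23.0%, and their best log2 values rested on at most 8 IP reads. They had 1 miRNA assignment in all, of miR-124-3p on *Kif18a* in replicate 1. Of other kinesins of division, chosen after their values were seen, *Kif14*, *Kif18b* and *Kif22* had 1 assignment each and no enriched cluster.

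Among the myosins, *Myo10* had the highest log2 of all members in WT and *Myh9* in both *Mov10* Deletion libraries. *Myh9*, the heavy chain of non-muscle myosin IIA, had 3 enriched clusters in WT, 14 in replicate 1 and 3 in replicate 2. Its locus 37 nt from the end (chr15:77760622-77760748) stood at 3.56, 4.07 and 5.42 on 42, 58 and 36 IP reads, and one 862 nt from the end at 4.11, 6.53 and 3.84, the last on 6 IP reads and below the p threshold. *Myo10*, which carries cargo to the tips of filopodia, passed at a locus 939 nt from its end (chr15:25812412-25812734). Its highest clusters there stood at 5.80 in WT, 5.80 in replicate 1 and 5.06 in replicate 2. They had 66, 32 and 14 IP reads over 1 input read. These clusters did not overlap and lay 1080, 1026 and 945 nt from the end. The highest values of *Myh9* and *Myo10* thus lay near the 3′ end in every library.

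*Myh10*, the non-muscle myosin IIB heavy chain and the main one of neurons, was enriched in all libraries but not at 1 place. At 393 nt from its end (chr11:68816103-68816233) WT stood at 3.84 and the *Mov10* Deletion libraries at 2.05 and 1.72, on 51, 31 and 18 IP reads. The enriched *Myh10* clusters of *Mov10* Deletion lay elsewhere, the highest at 34847 and 35898 nt from the end (3.67 and 4.71). *Myh14*, the third non-muscle heavy chain, was not enriched. *Myo5a*, the carrier of endoplasmic reticulum into spines, passed 1387 nt from its end (chr9:75222172-75222301) at 3.73, 3.21 and 4.34. *Myo16*, which is abundant in developing brain, passed 227388 nt from its end at 4.17, 4.03 and 3.02 and held 6, 27 and 14 enriched clusters. *Myo9a* stood at 3.15, 3.12 and 3.58 at a locus 569 nt from its end, the last below the p threshold. *Myo6*, the motor that moves towards the minus end of actin, passed in replicate 2 only (4.58, 10 IP reads), as did *Myo5b* (4.95, 13 IP reads), a carrier of recycling endosomes. *Myo18a* passed in both *Mov10* Deletion libraries (4.71 and 4.25 on 15 and 8 IP reads), as did *Myo1c* (3.71 and 4.25) and *Myo9b* (4.26 and 4.42). Each of these pairs came from different loci. No *Myo18a* locus passed in both libraries, while 1 locus of *Myo1c* (3.71 and 3.58) and 1 of *Myo9b* (3.54 and 3.95) did.
The 8 skeletal and cardiac muscle myosins, *Myh1*, *Myh2*, *Myh3*, *Myh4*, *Myh6*, *Myh7*, *Myh8* and *Myh13*, had 3, 1 and 1 clusters in all, none enriched, and no miRNA assignment.

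Across the libraries, 22 members were enriched in all 3 (20.8%, against 9.72% of all protein-coding genes). They include the kinesins *Kif13a* and *Kif26a*. A further 9 members, or 8.49% against 7.68%, passed in replicates 1 and 2 but missed the threshold in WT, namely *Kif1a*, *Kif2a*, *Kifap3*, *Myo18a*, *Myo1c*, *Myo9b*, *Tubb2b*, *Tubb3* and *Tubgcp2*. The 1 member of the opposite pattern, *Kif3a*, was 0.943%, against 0.675%. Both shares lay close to those of all genes. When every library kept the same number of clusters, 7582, the first group fell to 3 members, *Kif1a*, *Tubb2b* and *Tubb3* (2.83%, against 1.2% of all genes). The second rose to 5, among them *Kif13a*, *Kif26a*, *Kif28* and *Kif3a* (4.72%, against 3.22%), so the larger of the groups changed.

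Locus by locus, the enriched clusters of the 3 libraries merged into 244 loci, of which 14 were enriched in all 3 libraries, 12 in both *Mov10* Deletion libraries only and 22 in WT only. The value of a library at a locus is that of its highest enriched cluster or, with none enriched, of its cluster with the highest −log10 p. The values of 1 locus can therefore come from clusters that do not overlap, as at *Myo10*, *Kif13b*, *Kif21a* and *Klc2*. Of the 46 loci enriched in WT, 39 had a cluster in *Mov10* Deletion, each with a positive log2 in both libraries. A positive log2 asks for less there. At 1 IP read over 1 input read the fold was 0.845 in WT, 1.74 in replicate 1 and 2.39 in replicate 2. Of the 12 loci enriched in *Mov10* Deletion only, 9 had a WT cluster, each with a positive log2 (median 2.46), and 3 had none, at *Kif21a*, *Kif2a* and *Myo9b*. The plot of log2 at the shared loci shows the WT values of the lower block spread from 1.22 to 2.99, below the threshold but above input. A further 127 loci passed in replicate 1 alone and 59 in replicate 2 alone. In the first set replicate 2 had a median log2 of 1.25 on 1 IP read, and in the second replicate 1 had a median of 0.80 on 2 IP reads. Each median log2 is the value that 1 IP read over 1 input read gives in that library, so neither shows enrichment. The matching counts over all genes were not computed.

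**Figure D2:**
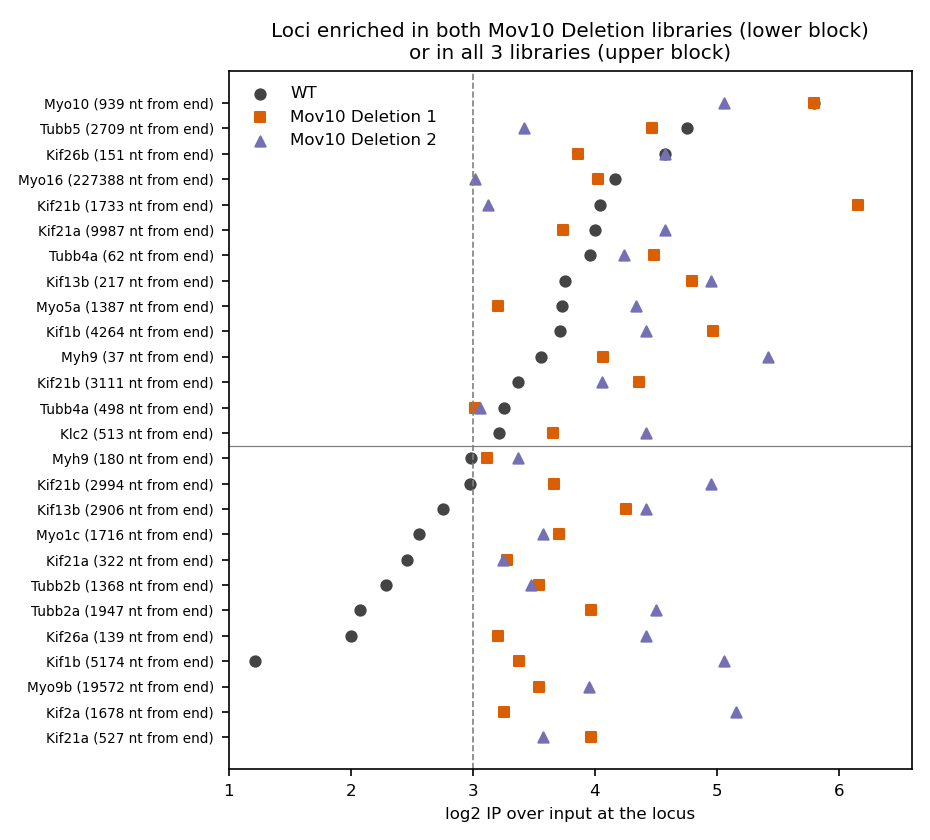
log2 IP over input (horizontal axis) in each library at the 14 loci enriched in all 3 libraries (above the line) and the 12 enriched in both *Mov10* Deletion libraries only (below it), labelled by gene and distance from the gene end. The dashed line marks the threshold of 3, and 3 loci have no WT point because WT had no cluster there.

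The enriched clusters of the members lay nearer to gene ends in WT. Of 57 enriched clusters in WT, 17 (29.8%, 95% interval 18.4 to 43.4) were in the last 1000 nt of the gene, against 30 of the 240 of replicate 1 (12.5%, 8.595 to 17.4) and 20 of 128 in replicate 2 (15.6%, 9.81 to 23.1). In other protein-coding genes the shares were 20.4%, 11.03% and 10.7%. Adjoining clusters were counted singly, so these counts and intervals are not of independent regions. The *Myo10* locus 939 nt from its end, for example, held 3 enriched clusters in WT, 7 in replicate 1 and 3 in replicate 2. As the plot of distance from the gene end shows, 17.5% of the clusters in WT, 30.4% in replicate 1 and 24.2% in replicate 2 lay over 100 kb from the end, mostly in the long genes *Kif26b* and *Myo16*. The median enriched member cluster had 42 IP reads and a width of 115 nt in WT, 15 reads and 47 nt in replicate 1, and 11 reads and 58 nt in replicate 2. Among clusters of at least 16 IP reads, an alternative chosen after the data were seen, the share in the last 1000 nt was 20.2% in replicate 1 and 28.6% in replicate 2, the latter near that of WT. The part of read depth in the difference was not otherwise tested.

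**Figure D3:**
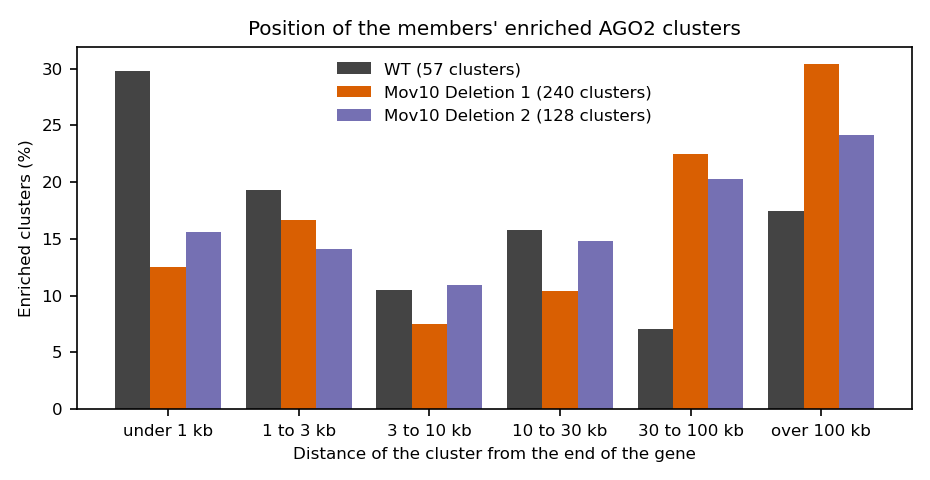
Share of the members' enriched AGO2 clusters (vertical axis, percent) by distance from the end of the gene, for 57 WT clusters and, for *Mov10* Deletion, 240 (replicate 1) and 128 (replicate 2). The WT bar is highest under 1 kb, and both *Mov10* Deletion bars are above WT beyond 30 kb.

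Target clusters with a named miRNA lay in 36 members in WT (34.0%, against 28.5% of all protein-coding genes). In replicate 1 they lay in 48 (45.3%, against 34.1%) and in replicate 2 in 42 (39.6%, against 24.1%). These shares were not split by gene length, and the members are longer than most genes. In all 3 libraries 29 members had a target cluster, and the matching count over all genes was not computed. *Kif1b* had the most assignments, 18, 26 and 9, of which 7, 8 and 2 were of miR-124-3p. Tubulins followed. *Tuba1a* had 15, 12 and 8 assignments, *Tubb5* 12, 19 and 8, and *Tubb3* 13, 10 and 4. The 17 tubulin genes together took 31.2%, 22.9% and 24.8% of the members' assignments, as the plot of assignments by gene shows. *Kif1a* had 12, 8 and 7, *Kif26b* 6, 14 and 6 and *Myh10* 5, 17 and 2.
The make-up differed between genes. *Klc1* had 4, 5 and 2 assignments of miR-466i-5p and 2, 0 and 0 of miR-124-3p, while *Kif21b* had 5, 3 and 1 of miR-124-3p. *Kif5c* had 2, 2 and 1 of miR-16-5p, a count too low for an order between libraries.

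**Figure D4:**
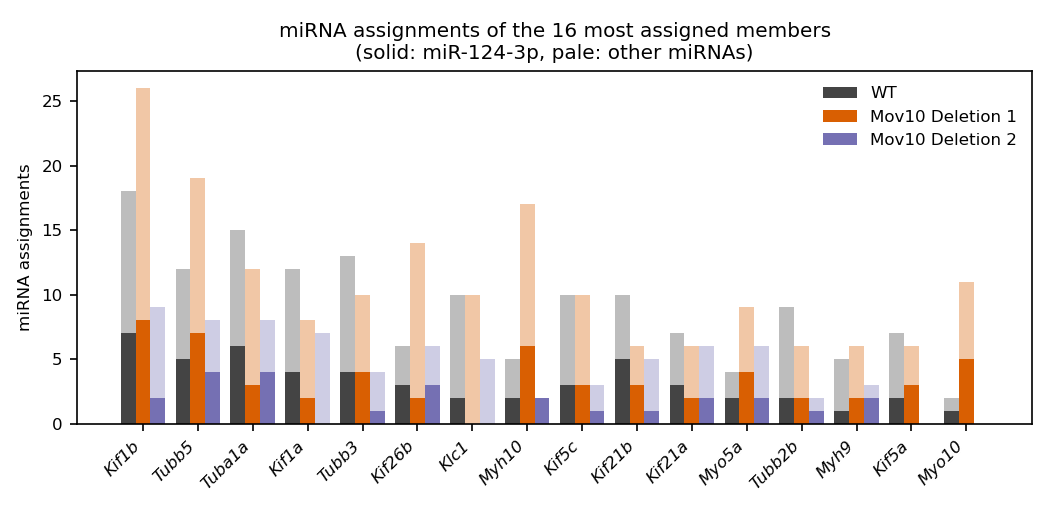
miRNA assignments (vertical axis) of the 16 members with the most, by library, with miR-124-3p solid and all other miRNAs pale. *Kif1b* leads with 18 in WT and 26 and 9 in *Mov10* Deletion, and *Tubb5*, *Tuba1a* and *Tubb3* are among the first 5.

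The same miRNA on overlapping target clusters was counted as 1 site. This gave 429 sites, of which 329 were found in 1 library, 68 in 2 and 32 in all 3. miR-124-3p made 76, 34 and 21 of these. The 32 sites lay in 17 genes, 14 of the sites in tubulins and 11 in kinesins, and the deposited score, whose scale the sources used here do not describe, was higher at them (median 16.15 in WT, 13.6 in replicate 1 and 8.04 in replicate 2) than at sites seen in 1 library (4.1, 4.0 and 3.87).

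In WT and replicate 1 the highest-scoring sites were of miR-124-3p on tubulins, and in replicate 2 the highest was that of miR-124-3p on *Kif1b*, given below. *Tuba1a* 795 nt from its end (chr15:98950642-98950751) scored 134 in WT, 130 in replicate 1 and 59.1 in replicate 2. The AGO2 clusters there had a log2 of 2.61, 2.61 and 2.93, close to each other and below the threshold, and miR-7a-5p (18.6, 23.9 and 13.5) and miR-3099-3p (5.25, 3.0 and 3.0) shared the site. *Tubb5* 1257 nt from its end (chr17:35835177-35835316) scored 131, 122 and 31.0, and *Tubb4a* 82 nt from its end (chr17:57080143-57080360) scored 124, 80.9 and 38.4. The *Tubb4a* site overlapped its enriched 3′ locus, and the *Tubb5* site did not overlap an enriched cluster in any library (log2 of 2.30, 2.07 and 2.27). *Tubb3* carried miR-124-3p 1127 nt from its end (47.4, 55.3 and 29.2) and both miR-181a-5p (14.3, 29.3 and 6.0) and miR-433-3p (13.8, 16.9 and 3.66) at 409 nt. Replicate 2, which had the fewest assignments, had the lowest score at 19 of the 32 sites.

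Other miRNAs held named sites on enriched loci. On *Tubb5* the locus 2709 nt from the end was assigned to miR-128-3p in all libraries (32.3, 14.6 and 19.7), and on *Kif1b* the locus 4264 nt from the end to miR-181a-5p (28.6, 18.9 and 16). *Kif1b* also carried miR-124-3p 233 nt from its end, with its highest score in replicate 2 (45.4, 55.4 and 63.7) and no enriched AGO2 cluster. The miR-124-3p sites of *Kif26b* (44.1, 38.3 and 11.9), *Myh9* (13.4, 16.6 and 8.88) and *Myo5a* (17.0, 10.4 and 3.0) lay on their enriched 3′ loci in every library. With *Tubb4a* these were the 6 of the 32 sites on an enriched cluster in all libraries, and 21 were on one in none. At the *Myh10* site 371 nt from the end the scores were 27.9, 19.6 and 9.94, and only WT had an enriched cluster there. In all, 16.1%, 11.5% and 12.4% of the members' assignments fell on an enriched AGO2 cluster, and 78.9%, 59.9% and 64.6% on any AGO2 cluster. Assignments in the last 1000 nt were 30.7%, 19.5% and 22.12% of the members' total, against 19.3%, 14.3% and 15.0% in other protein-coding genes.

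**Figure D5:**
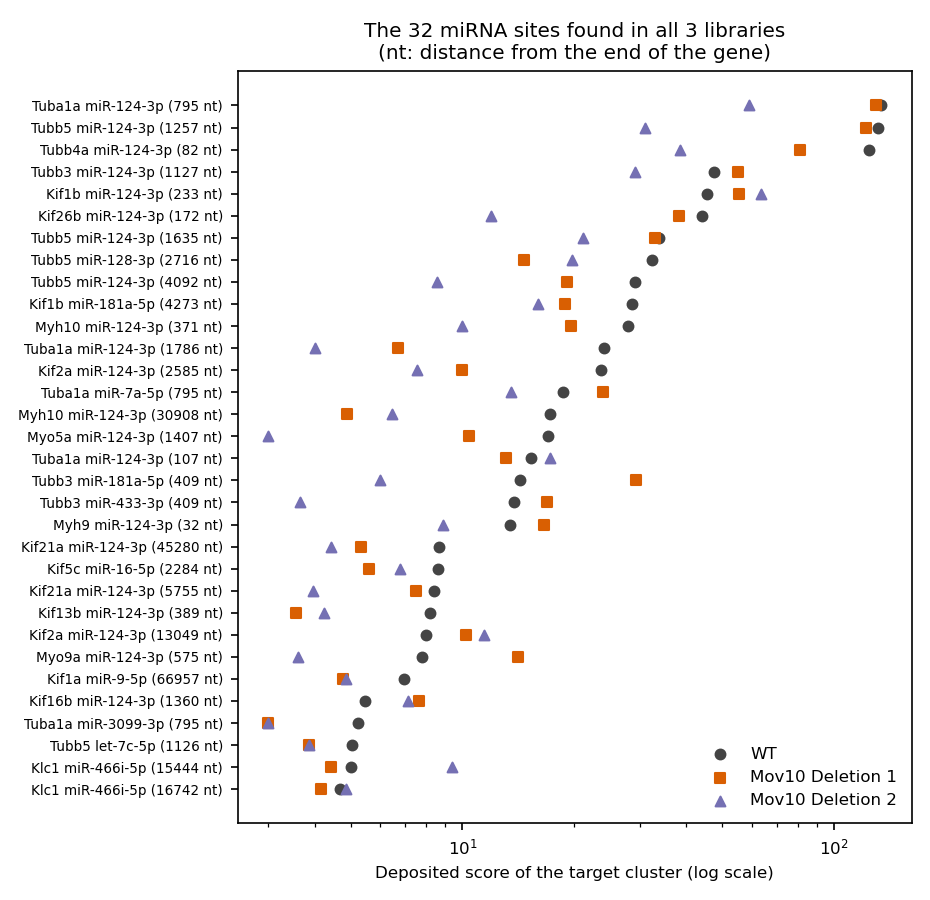
Deposited score (horizontal axis, log scale) of the 32 miRNA sites found in all 3 libraries, labelled by gene, miRNA and distance from the gene end, with 1 point for each library. The miR-124-3p sites of *Tuba1a*, *Tubb5* and *Tubb4a* score above 120 in WT, and replicate 2 lies lowest at 19 sites.

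Genes that act with the motors and tubulins were listed as a comparison, 43 in all. Enriched were 13 of the 43 genes in WT, 29 of 43 in replicate 1 and 18 of 43 in replicate 2. Of all 21468 protein-coding genes 2696 (12.6%), 6294 (29.3%) and 4941 (23.0%) were enriched, a smaller share in each library. The list was not matched for gene length. The kinesin cargo adaptors were enriched most often, 7, 10 and 9 of 11. *Clstn1*, which links kinesin-1 to vesicles, had 6, 7 and 10 enriched clusters with highest values of 5.39, 5.61 and 5.06, and *Mapk8ip3* 2, 6 and 1 with 5.0, 4.32 and 3.65. Of the tubulin folding and modification genes 6, 13 and 7 of 19 were enriched. *Vash1*, a tubulin tyrosine carboxypeptidase, had 3, 4 and 7 enriched clusters (5.37, 5.77 and 5.28), and *Ttl*, the ligase that restores the tyrosine, 5, 7 and 4 (4.46, 4.61 and 5.34). The myosin light chains gave 0, 2 and 1 of 5 and the gamma-tubulin ring partners 0, 4 and 1 of 8.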

How the data were processed

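AGO2 chimeric eCLIP libraries of P0 brain, 1 WT and 2 *Mov10* Deletion, were analysed from the deposited clusters. The inputs were used only as part of the deposited ratios. Per the methods and the submitters' processing notes, the authors handled molecular identifiers and PCR duplicates with UMI-tools 1.1.1, trimmed with cutadapt 3.2, removed repeat and rRNA reads, mapped to mm10 with STAR 2.7.7a and called clusters with CLIPper. miRNAs were matched with Bowtie 1.2.3. The authors deposited each AGO2 cluster's IP over input as log2 and its p-value as −log10, limited at 400. The authors deposited a score for each target cluster, at least 3 in these files. Its meaning, the treatment of reads mapping to several places, and whether clusters were called on each *Mov10* Deletion brain or on both together are not given in the sources used here.

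Clusters were assigned to same-strand RefSeq gene bodies (GRCm38.p6, counted from 1). Strands came from RefSeq promoters for 86 members and from GENCODE by symbol for 20. Exons and introns were not separated. Library depth is unknown. IP and input reads were inferred as the whole numbers (up to 60 input reads) that give the deposited ratio and −log10 p. The tolerance on −log10 p was 0.001, relative for values above 1. A test on simulated data used the same form of p-value, so it cannot check the form of the deposited ones. In the deposited data 1 library-wide fold fitted 51 of 60 sampled enriched clusters in WT, 55 in replicate 1 and 59 in replicate 2. For the *Tubb4a* cluster at the limit in replicate 1 no reads were inferred. Intervals are exact Clopper-Pearson and cover counting error only. They treat clusters as independent, although adjoining clusters can be pieces of 1 region. The genes named were tubulins with an enriched or target cluster, a list of neuronal, mitotic and non-muscle motors, the 5 members a library with the highest enriched log2 and the most assignments, those enriched in WT alone or in both *Mov10* Deletion libraries but not WT, and the muscle myosins as a group. The values of 1 member under this rule are not reported here. Alternatives were other log2, p and score limits, the last 3000 nt, clusters in 1 gene, target clusters with 1 miRNA, the same number of clusters a library, each *Mov10* Deletion library left out and, chosen after seeing the data, at least 16 IP reads. Members, lists and rules were chosen with earlier results of these data known. Python 3.11.15, pandas 2.3.3, NumPy 2.4.6, SciPy 1.17.1 and Matplotlib 3.10.9 were used.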

Additional observations from a re-analysis of the deposited data

How the results depend on the processing

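Under the alternatives 52 values stayed within 1.5 times the reported count or inside the reported interval and 38 moved. The first include all counts with clusters in exactly 1 gene. With a −log10 p of at least 5, the enriched members were 26 in replicate 1 and 24 in replicate 2, their clusters 108 and 55, the members in both 19, those in WT only 3, and the share in the last 1000 nt in replicate 1 18.5%. With a log2 of at least 2, enriched clusters were 105 in WT and 197 in replicate 2. With the same number of clusters in each library, members were 25 in WT, 21 and 24, clusters 68 and 55, members in both 18, in both and not WT 3, and in WT only 5. With at least 16 inferred IP reads, chosen after seeing the data, the same quantities were 25 and 19, 114 and 35, 16, 3 and 4, and the shares in the last 1000 nt 20.2% and 28.6%. In the last 3000 nt the shares were 49.1%, 29.2% and 29.7%. Leaving out either *Mov10* Deletion library gave 15 to 18 members enriched in *Mov10* Deletion and not in WT, 1 to 3 in WT only and 37 to 42 in *Mov10* Deletion. Without replicate 1 the WT-only count was 3. With a single miRNA a cluster, WT assignments were 111. With a score of at least 5, assignments were 103, 111 and 46, the miR-124-3p share 54.4% in WT and 48.7% in replicate 1, and the members with a target cluster in replicate 2 25. Most of these settings keep fewer clusters by construction, and any other cause was not tested. The reads behind single clusters limit what can be said of the *Mov10* Deletion libraries, whose median enriched member cluster had 15 and 11 IP reads. No paired analysis was possible because the labels give replicate numbers only and do not pair brains between the genotypes.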
